A study of Mus musculus with 6 samples.

Results

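The genes described are 10 transcription factors of the lateral plate mesoderm and of the limb that grows from it: Hand1, Hand2, Tbx2, Tbx3, Tbx5, Foxf1, Prrx1, Prrx2, Gata4 and Gata6. They were chosen by name, and a probe set was taken when the platform annotation gave it exactly 1 gene symbol and that symbol was among these names. All 10 were on the array, with 18 of the 22626 probe sets tested, and they are 10 of 12393 genes with such a probe set. No filter on low values was applied, so every one of the 18 probe sets entered the tests.

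The material was somite-level tissue of mouse embryos of strain c57bl/6 at 9.5 days post coitum, cut between the otic placode and the youngest somite, with the allantois, heart and endoderm taken away. Of the 6 pools of embryos, 3 were wild-type at Dll3, which encodes a Notch ligand of somite segmentation, and 3 carried the neo allele of Dll3 (also named tm1Rbe) on both chromosomes. The tissue was not sorted, so somite, neural tube, lateral plate and other tissues of that level were measured as 1 mixture, in which fewer cells of a type and less RNA per cell cannot be told apart. RNA of each pool went on 1 Affymetrix MOE430A array, and the 6 arrays limit the precision. How many embryos made up a pool was not stated.

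Lateral plate mesoderm lies lateral to the somites and splits into a splanchnic layer, which lines the gut and builds the heart, and a somatic layer, which forms the body wall and the limb buds. Hand and GATA factors act in the splanchnic layer and the heart, Foxf1 in the splanchnic layer under Hedgehog signals, Tbx5 starts the forelimb bud, and the Prrx factors mark limb and other loose mesenchyme. Most of these genes are also active in the heart or in the pharyngeal arches, so a level in dissected trunk tissue has more than 1 possible cell source.

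From the promoter table of RefSeq (build GRCm38.p6), windows of 3 of the 10 genes were taken: Hand2, Prrx1 and Prrx2. The 250 bases before the start of Hand2 and of Prrx1 are given because Gata4, Gata6 and the Prrx homeodomain factors are themselves in the group. Capitals mark the letters GATAA, from the motif of GATA factors, and TAATTA, a motif of homeodomain proteins, each searched on both strands. T-box and Hand factors are in the group too. For them the letters GGTGTGA (T-box) and CANNTG (E-box, N being any letter) were searched, and these are not in capitals. The Hand2 window is chr8:57320733-57320982 on the plus strand and the Prrx1 window chr1:163313651-163313900 on the minus strand.
Hand2: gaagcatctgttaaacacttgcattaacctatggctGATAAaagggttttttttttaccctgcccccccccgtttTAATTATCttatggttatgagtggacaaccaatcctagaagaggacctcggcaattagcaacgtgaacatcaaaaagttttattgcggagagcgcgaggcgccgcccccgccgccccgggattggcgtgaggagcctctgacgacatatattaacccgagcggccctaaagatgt
Prrx1: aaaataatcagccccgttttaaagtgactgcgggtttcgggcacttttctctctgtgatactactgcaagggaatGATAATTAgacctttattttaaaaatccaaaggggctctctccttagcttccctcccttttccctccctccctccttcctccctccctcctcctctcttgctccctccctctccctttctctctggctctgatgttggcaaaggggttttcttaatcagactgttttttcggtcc
The Hand2 window held 2 GATA matches, which begin 214 and 172 bases before the start, and 1 TAATTA match at 175 bases, which shares letters with the second. In Prrx1 the GATA match at 175 bases and the TAATTA match at 173 bases overlap. Among 32851 promoter windows of that length, 22.6% held a GATA match and 4.84% a TAATTA match, and the GC-rich window of Prrx2 (70.0% G and C, against 47.6% in Prrx1 and 49.2% in Hand2) held neither. The T-box letters were in 3.33% of the promoter windows, and Hand2, Prrx1 and Prrx2 each held 0 matches. The E-box letters were in 66.2% of the promoter windows. Hand2 held 2 E-box matches, which begin 246 and 235 bases before the start, while Prrx1 and Prrx2 held 0. A match is a description of the letters only, and no binding was measured.

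Each value is a linear ratio of a pool to the probe set's own reference. For 93.4% of probe sets, all 18 probe sets of these genes among them, the median of the 6 pools is 1, and for 1497 it is lower. A ratio of 1.2 in a pool therefore means a signal above that reference, and the ratios say nothing of how strongly a gene was expressed, whether it was above background, or whether 1 gene was higher than another. For the same reason the somite markers cannot show how much of the tissue was somite. Differences are given as Dll3 mutant minus wild-type on the log2 scale, from limma fits over all probe sets or all genes, with p-values adjusted by Benjamini-Hochberg over the whole table and a threshold of 0.05. The value of a gene was the mean log2 ratio of its probe sets.

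Mutant pools were set against wild-type pools to ask whether tissue lateral to the somites differed when Dll3 was disrupted. None of the 10 genes passed the threshold, and none reached an unadjusted limma p of 0.05. Over all 12393 genes 0% passed the adjusted threshold and 2.67% had an unadjusted p under 0.05, and over the 22626 probe sets these shares were 0% and 2.63%. Of the 10 genes, 7 had a value above 0 (Tbx2, Prrx2, Tbx5, Foxf1, Tbx3, Hand1 and Hand2) and 3 a value below 0 (Prrx1, Gata4 and Gata6), beside 51.9% of all genes above 0. The median of the 10 log2 differences was 0.03, against 0.0035 over all genes. Counted by probe set, 8 were above 0 and 10 below, with a median of -0.02, so the balance of signs differs between the counts. It also moved with the fit: 2 genes were above 0 and 8 below with the sex score described further on as a covariate (median -0.092). That score does not overlap between the genotypes, so sex and genotype cannot be told apart in that fit. With array weights 4 were above and 6 below, and without wild-type replicate 3 there were 5 on each side. With 1 pool left out, 9 of the 10 values moved by over 1.5 times or turned sign.

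For all 10 genes the 95% interval of the log2 difference held 0, and in this fit its outermost bounds were a fold of 0.807 for Gata6 and 1.24 for Hand1. By single probe sets the outermost bounds were 0.762 and 1.32. These bounds hold for this fit only, since Hand1 itself lay at -0.374 on the log2 scale once the sex score was included. In the fit with that score, sex and genotype cannot be told apart. The median size of the log2 difference, without its sign, was 0.067 for these genes and 0.054 over all genes, and the median SE was 0.082 for these genes and 0.087 over all. Groups that did not overlap were found for 1 gene, Tbx2, against 7.46% of all genes.

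**Figure D1:**
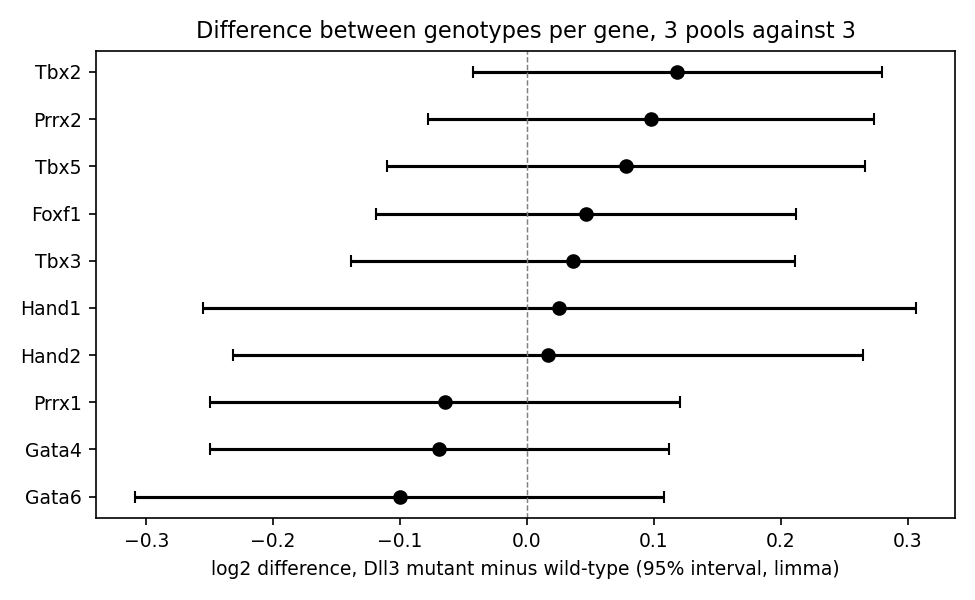
Log2 difference (horizontal axis, Dll3 mutant minus wild-type) of each of the 10 genes, with points for the limma estimate and bars for its 95% interval over 3 pools against 3. Every interval crosses 0, from Tbx2 at 0.12 to Gata6 at -0.10.

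The Hand genes encode basic helix-loop-helix factors. Hand1 is known for the heart, the ventral body wall and the extraembryonic mesoderm. By its first probe set (1417525_at) the ratio was 1.205, 0.909 and 0.765 in wild-type replicates 1, 2 and 3, against 0.986, 1.014 and 1.020 in mutant replicates 1, 2 and 3. The second probe set (1448750_at) gave 1.225, 1.016 and 0.859 for wild-type, against 1.066, 0.984 and 0.931 for mutant, in the same order. By both probe sets wild-type replicate 1 was the highest and wild-type replicate 3 the lowest of all 6 pools, with every mutant pool between them. The genotype difference was accordingly small, at 0.03 for the gene (SE 0.127, 95% interval -0.26 to 0.31), and its sign differed between the probe sets (0.09 and -0.04). It also turned with the wild-type pool left out: it came to 0.18 when wild-type replicate 1 was dropped and to -0.11 when wild-type replicate 3 was.

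Hand1 stood out by its spread within the wild-type pools. Its SD on the log2 scale was 0.293 over the 3 wild-type pools and 0.037 over the 3 mutant pools. Only 1.6% of all genes had a larger wild-type SD, while 89.5% had a larger mutant SD. The highest ratio of the first probe set was 1.58 times its lowest, more than in 96.4% of all probe sets, and in the second it was 1.43 times, more than in 87.8%.

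**Figure D2:**
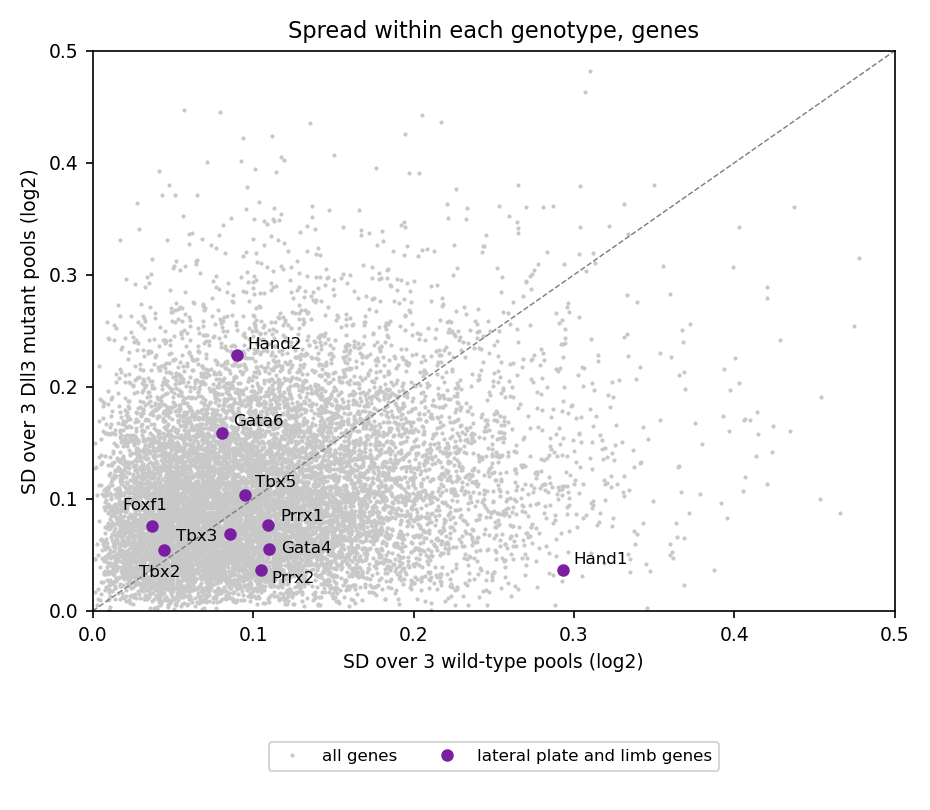
SD of the log2 ratio over the 3 wild-type pools (horizontal axis) against that over the 3 Dll3 mutant pools (vertical axis), with grey points for all genes, purple points for the 10 genes and a dashed line where both are equal; 14 other genes lie beyond the axes. Hand1 is far to the right at 0.293 and 0.037, and Hand2 is the highest of the 10 at 0.090 and 0.229.

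Hand2, which acts in the heart, the pharyngeal arches and the posterior limb bud, had another pattern. Its single probe set (1422221_at) was at 1.077, 1.026 and 0.952 in wild-type replicates 1, 2 and 3, and at 0.909, 0.974 and 1.230 in mutant replicates 1, 2 and 3. Mutant replicate 3 was the highest of the 6 pools and mutant replicate 1 the lowest, so the mutant pools enclosed the wild-type ones, the reverse of Hand1. The log2 difference was 0.02 (SE 0.112, 95% interval -0.23 to 0.26), and it was -0.11 without mutant replicate 3. It was also below 0, at -0.03, without wild-type replicate 3. The mutant SD of 0.229 was exceeded by 5.39% of all genes.

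The GATA factors, zinc finger proteins of the heart, the splanchnic layer and the endoderm, had the most negative differences of the group. By one probe set (1418863_at) Gata4 was at 1.085, 1.018 and 0.982 in wild-type replicates 1, 2 and 3, against 0.935, 0.959 and 1.058 in the mutant replicates. By the other (1418864_at) it was at 1.161, 1.040 and 0.947 against 0.981, 0.994 and 1.006. Wild-type replicate 1 was the highest pool in both, and the groups overlapped. Its log2 difference was -0.07 (SE 0.081, 95% interval -0.25 to 0.11), and -0.01 without wild-type replicate 1 or -0.121 without wild-type replicate 3.

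Gata6 had the most negative value of the 10, at -0.10 (SE 0.094, 95% interval -0.31 to 0.11; limma adjusted p = 0.9997). Its first probe set (1425463_at) was at 0.995, 1.136 and 1.005 for wild-type, against 0.883, 0.859 and 1.123 for mutant replicates 1, 2 and 3. Its second (1425464_at) read 1.215, 0.964 and 0.962 against 1.036, 0.898 and 1.064. Mutant replicate 2 was the lowest pool in both, whereas the highest was wild-type replicate 2 in the first and wild-type replicate 1 in the second. Leaving out mutant replicate 2 gave a value of -0.03, and leaving out mutant replicate 3, the highest mutant pool, gave -0.185.

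Among the T-box genes, Tbx2 had the smallest p-value of the 10 genes. Tbx2, a repressor in the heart, the limb margins and the eye, was at 0.994, 0.935 and 0.972 in wild-type replicates 1, 2 and 3, and at 1.063, 1.081 and 1.006 in mutant replicates 1, 2 and 3 (probe set 1422545_at). All 3 mutant pools lay above all 3 wild-type pools, by a narrow gap between 0.994 and 1.006. For Tbx2 the log2 difference came to 0.12 (SE 0.073, 95% interval -0.04 to 0.28), with a limma p of 0.133 and an adjusted p of 0.9997. Its spread within groups was small, with SDs of 0.045 and 0.054 on the log2 scale, and 16.5% of all genes had a larger difference in size. The value was between 0.09 and 0.15 with any 1 pool left out.

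Tbx3, a close relative that represses in the heart and limb, and Tbx5, the forelimb gene, lay at 0.04 (SE 0.079) and 0.08 (SE 0.085). The groups overlapped in every probe set of both. Tbx3 was highest in wild-type replicate 1 (1.156) by one probe set (1439567_at) and in mutant replicate 3 (1.128) by the other (1448029_at), and the signs of their log2 differences were opposite (-0.01 and 0.09). Tbx5 was lowest in wild-type replicate 3 (0.863) by its first probe set (1425694_at) and in wild-type replicate 2 (0.847) by its second (1425695_at), with log2 differences of 0.04 and 0.11. Neither value was steady: Tbx3 came to 0.000329 when mutant replicate 1 was dropped and to 0.0853 when wild-type replicate 1 was. Tbx5 came to 0.0265 when mutant replicate 3 was dropped and to 0.133 when wild-type replicate 1 was. In the gene table Tbx3 and Tbx5 are next to each other, with 0 protein-coding genes between them, as are Tbx2 and the hindlimb gene Tbx4.

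Foxf1, the forkhead factor of splanchnic mesoderm, was among the steadiest. Its ratio (probe set 1423013_at) was 0.962, 1.007 and 1.004 for wild-type, against 0.996, 1.087 and 0.990 for mutant replicates 1, 2 and 3. Mutant replicate 2 was the highest pool, and the other 5 lay between 0.962 and 1.007. Its log2 difference came to 0.05 (SE 0.075, 95% interval -0.12 to 0.21), and its highest ratio was 1.13 times its lowest, a span larger than in 11.3% of all probe sets. The difference rested on mutant replicate 2, since it was 0.00322 when that pool was dropped.

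The paired-related homeobox genes of limb mesenchyme had values of opposite sign. Prrx1 was at -0.06 (SE 0.083, 95% interval -0.25 to 0.12) and Prrx2 at 0.10 (SE 0.079, 95% interval -0.08 to 0.27), and the groups overlapped in both. Prrx2 (1432331_a_at) was at 1.027, 0.898 and 0.914 in wild-type replicates 1, 2 and 3 and at 1.033, 0.983 and 1.017 in mutant replicates 1, 2 and 3. Wild-type replicates 2 and 3 lay below every mutant pool, while wild-type replicate 1 lay among them, and dropping the latter brought the value of Prrx2 to 0.158 while dropping wild-type replicate 2 brought it to 0.0611. Prrx1 came to -0.0104 when wild-type replicate 2 was dropped and to -0.119 when wild-type replicate 3 was.

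All 4 probe sets of Prrx1 had a value below 0, from -0.09 to -0.02, but they did not follow the pools alike. Wild-type replicate 2 was the highest pool in 3 of them, with ratios of 1.127 (1425526_a_at), 1.055 (1425527_at) and 1.165 (1432129_a_at). In the fourth (1425528_at) mutant replicate 1 had a ratio of 0.767 while the other pools lay between 0.956 and 1.053. The root mean square difference between centred log2 profiles over the 6 pools was 0.053 for 1425527_at and 1432129_a_at, and 0.211 for 1425528_at and either of them.

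**Figure D3:**
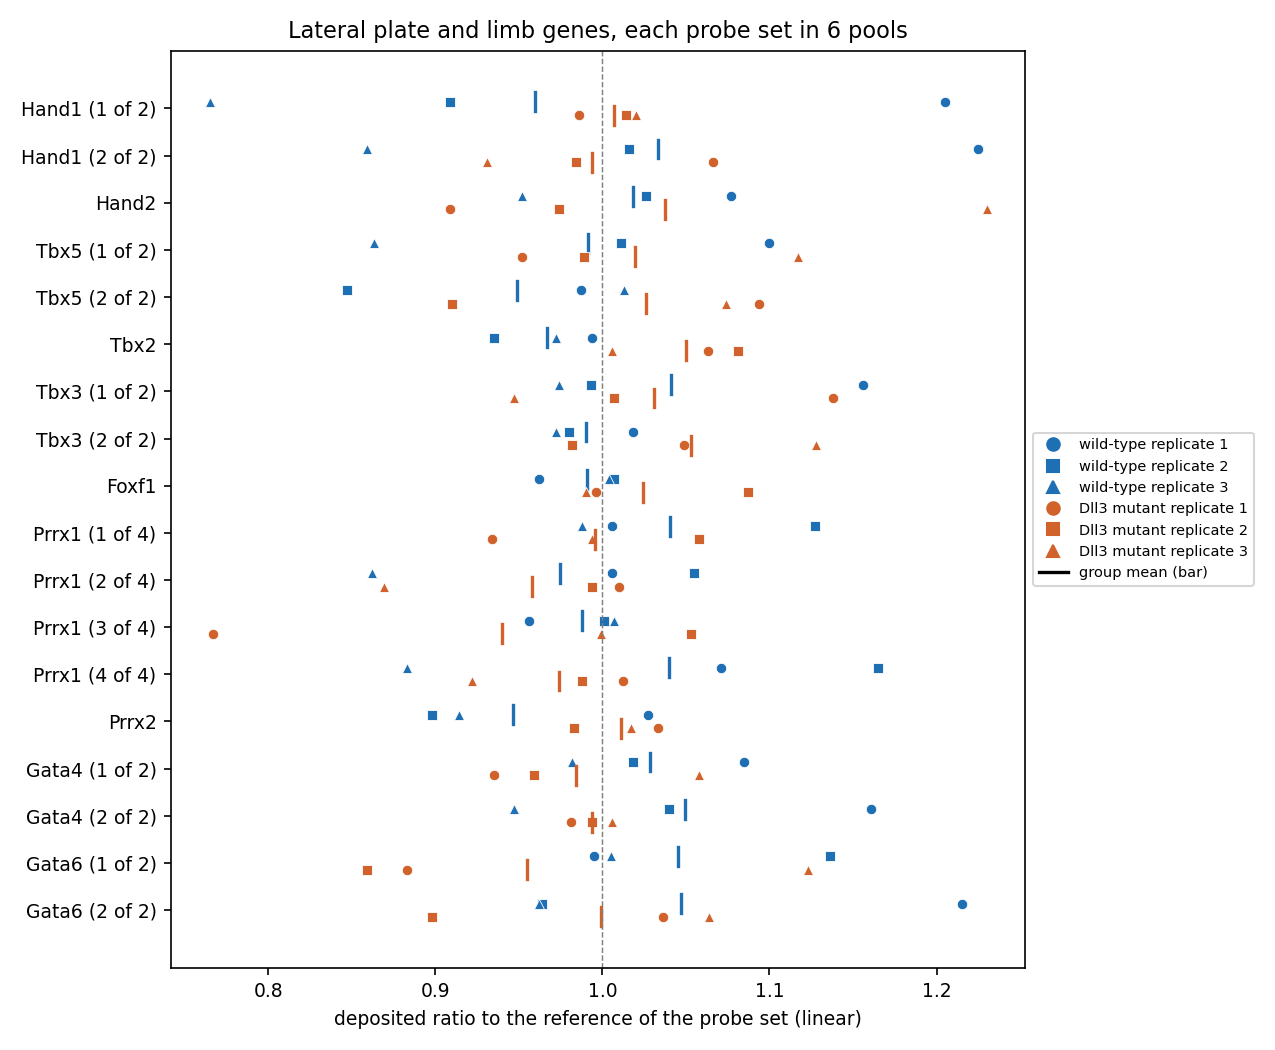
Deposited ratio (horizontal axis, linear) of each of the 18 probe sets in the 6 pools, with blue for wild-type, orange for Dll3 mutant, a symbol for each replicate number and a vertical bar for the group mean. Blue and orange points overlap in every row but that of Tbx2, and wild-type replicate 1 of Hand1 reaches 1.205 and 1.225.

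The values of the 10 genes were also compared between pools. Wild-type replicate 1 was the highest of the 3 wild-type pools for 8 of the 10 genes, all but Foxf1 and Prrx1, whereas it was so for 33.7% of all genes. Wild-type replicate 3 was the highest for 0 of the 10 and the lowest for 6, where the shares over all genes were 39.7% and 38.2%. Counted by probe set the order was less uniform. Wild-type replicate 1 was the highest for 11 of 18 (33.1% over all probe sets). Wild-type replicate 3 was the highest for 2 and the lowest for 12 (40.3% and 36.8% over all probe sets). Among the mutant pools no such order was seen, with 3, 3 and 4 genes highest in replicates 1, 2 and 3. The mean log2 ratio of the 10 genes was 0.086, -0.017 and -0.085 in wild-type replicates 1, 2 and 3, and -0.005, -0.011 and 0.055 in the mutant replicates, so the mutant pools lay within the wild-type range. These shares and means are descriptions of the 6 pools, with no test.

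The genes were also set against each other by the root mean square difference between their centred log2 profiles over the 6 pools, a description over 45 pairs that share the same arrays. The closest pair was Tbx3 and Prrx2 (0.041), followed by Tbx5 and Prrx2 (0.050) and by Tbx5 and Tbx3 (0.061). Gata4 and Gata6 were sixth (0.073). Family members were not always close: Prrx1 and Prrx2 were at 0.139, and Hand1 and Hand2 at 0.193, the 44th of 45. By the same measure, probe sets of 1 gene lay 0.053 to 0.211 apart, a range that covers both of these distances. The measure also grows with the spread of a gene, and that of Hand1 within wild-type was the largest of the 10. The order of the pairs is therefore loose. For Tbx2, the genes outside the group with the nearest profile were Ddx41 (0.020), Cpeb2 (0.021) and Vegfd (0.022) among 12383 compared. For Gata6 they were Cnr2 (0.033), Sema3e (0.034) and Sufu (0.035). The centred profiles of Tbx2 and Gata6 themselves had a root mean square of 0.072 and 0.115. The named genes are only the smallest of 12383 distances over 6 pools, and shared regulation was not tested.

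Other genes of lateral plate and limb were followed as a list of companions, of which 35 of 37 were measured. A few genes stand in more than 1 of the lists that follow, and of the 44 genes outside the group that are named with a value, 34 moved by over 1.5 times or turned sign when 1 pool was dropped. Of the companions 18 lay above 0 and 17 below, with a median of 0.0047, and none passed the adjusted threshold in limma (2 had an unadjusted p under 0.05). Among those above 0 the smallest p-values were those of Lhx2, a homeobox gene of limb and eye (0.61, SE 0.246), Irx5 (0.20, SE 0.099) and Lmx1b, a gene of dorsal limb identity (0.15, SE 0.084). Lhx2 rested on mutant replicate 1, without which its value was 0.25, and Lmx1b was at 0.0772 without the same pool. Irx5 was at 0.103 when wild-type replicate 2 was dropped. Among those below 0 they were those of Tbx4 (-0.31, SE 0.124), Msx1 (-0.15, SE 0.080) and the BMP antagonist gene Grem1 (-0.14, SE 0.080). Tbx4 was at -0.20 without wild-type replicate 2, its highest pool.

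Signals known to act on these genes lay below 0 for 11 of 17 and above it for 6 (median -0.04), with 0 past the adjusted threshold and 0 at an unadjusted limma p under 0.05. Aldh1a2, which makes retinoic acid, was at -0.19 (SE 0.103), Shh at -0.13 (SE 0.093) and its receptor Ptch1 at -0.12 (95% interval -0.34 to 0.10). With 1 pool left out, all 3 were smallest in size without mutant replicate 1, at -0.0732, -0.047 and -0.0426. Ptch1 was also at -0.0589 without wild-type replicate 3, and at -0.197 without wild-type replicate 1. Of those above 0, the smallest limma p-values were those of Fgf8 at 0.14 (SE 0.119), Bmp7 at 0.10 (SE 0.096) and Wnt5a at 0.08 (SE 0.092). Fgf8 came to 0.0346 with wild-type replicate 1 left out, Bmp7 to 0.0456 with wild-type replicate 3 left out and Wnt5a to 0.0121 with mutant replicate 3 left out. Known targets lay below 0 for 7 of 11 (median -0.03), with 0 past the adjusted threshold. An unadjusted limma p under 0.05 was found for 2 of the 11, beside 2.67% of all genes. Among them the connexin gene Gja5 was at 0.18 (SE 0.078), the matrix gene Tnc at 0.18 (SE 0.083) and Myl7 at 0.09 (SE 0.128), with Nppb at -0.20 (SE 0.078), Cdkn2a at -0.13 (SE 0.114) and Bmp4 at -0.09 (SE 0.093). Cdkn2a came to -0.00471 with wild-type replicate 2 left out and Bmp4 to -0.027 with wild-type replicate 1 left out, and Myl7 turned to -0.0592 with mutant replicate 3 left out.

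Markers of other tissues were read beside these values, since heart and endoderm also express several of the 10 genes. No deposited ratio was at 0, the lowest being 0.266, and a ratio cannot show that a tissue is absent. Cardiac muscle genes lay above 0 for 13 of 21 (median 0.02), with Tnnt2 at 0.29 (SE 0.0999) and Tnnc1 at 0.20 (SE 0.111), both also expressed in skeletal muscle, and Nppb at -0.20 and Ryr2 at -0.09 (SE 0.088) on the other side. With mutant replicate 2 dropped Tnnt2 was at 0.197 and Tnnc1 at 0.08, and Ryr2 was at -0.0245 with wild-type replicate 1 dropped. Their mean log2 ratio was 0.0097, -0.033 and -0.073 in wild-type replicates 1, 2 and 3 and -0.0088, 0.016 and -0.016 in the mutant replicates. The medians of the list gave another order within wild-type (0.0115, 0.0172 and -0.0298), with replicate 2 the highest.

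Endoderm and yolk sac genes lay below 0 for 11 of 18 (median -0.04). Rbp4 was at 0.37 (SE 0.122), Foxa1 at 0.37 (SE 0.190), Apoa4 at -0.125 (SE 0.075) and Foxa3 at -0.12 (SE 0.086). Rbp4 was at 0.246 with wild-type replicate 2 dropped, Foxa3 at -0.0477 with mutant replicate 2 dropped, and Foxa1 at 0.17 with mutant replicate 3 and 0.56 with wild-type replicate 3 dropped. Their mean was -0.058, -0.084 and 0.091 in the wild-type and 0.086, -0.11 and 0.053 in the mutant pools. Within wild-type it was highest in replicate 3, where the mean of the 10 genes was lowest. The mutant pools did not show this opposition, since both means were lowest in replicate 2. Pharyngeal arch and neural crest genes lay above 0 for 7 of 11 (median 0.03), with Dlx1 at 0.20 (SE 0.090), Dlx2 at 0.16 (SE 0.129), Foxd3 at -0.14 (SE 0.091) and Dlx3 at -0.06 (SE 0.102). Dlx2 came to 0.0393 with wild-type replicate 2 left out and Dlx3 to -0.00751 with mutant replicate 3 left out. With mutant replicate 1 left out, Dlx1 was at 0.121 and Foxd3 at -0.06. Their mean ranged from -0.044 to -0.0027 in the wild-type pools and from -0.0345 to 0.088 in the mutant pools.

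Intermediate mesoderm genes lay above 0 for 6 of the 8 measured of 10 listed (median 0.02), with Gfra1 at 0.07 (SE 0.077), Wt1 at 0.09 (SE 0.114), Lhx1 at -0.08 (SE 0.075) and Ret at -0.07 (SE 0.073). Wt1 turned to -0.0151 and Gfra1 came to 0.0276 with mutant replicate 2 left out. The paraxial mesoderm genes, which mark the somites themselves, lay below 0 for 10 of 15 (median -0.10). The smallest p-values there were those of Uncx at -0.998 (SE 0.124, limma adjusted p = 0.116) and Dmrt2 at -0.23 (SE 0.109) below 0, and of Myog at 0.30 (SE 0.080) and Tbx18 at 0.07 (SE 0.0997) above it. Tbx18 came to 0.0145 with wild-type replicate 1 left out and Dmrt2 to -0.142 with mutant replicate 1 left out. None of the genes in the 5 marker lists passed the adjusted threshold in this limma fit. Of the 73 genes in them, 5 gave an unadjusted p under 0.05, beside 2.67% of all genes. Uncx did pass in 4 of its 16 alternatives. Its limma adjusted p was 0.0379 with a variance trend, 0.0104 in the robust fit and 0.0213 with array weights. It also passed with the replicate number as a block. The paraxial mean was -0.037, 0.081 and 0.11 in the wild-type and -0.16, -0.10 and 0.052 in the mutant pools. Within wild-type it was lowest in replicate 1, where the mean of the 10 genes was highest. The mutant pools did not show this opposition, since both means were highest in replicate 3 (0.052 and 0.055). The part of any of these tissues in the values of the 10 genes was not tested.

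**Figure D4:**
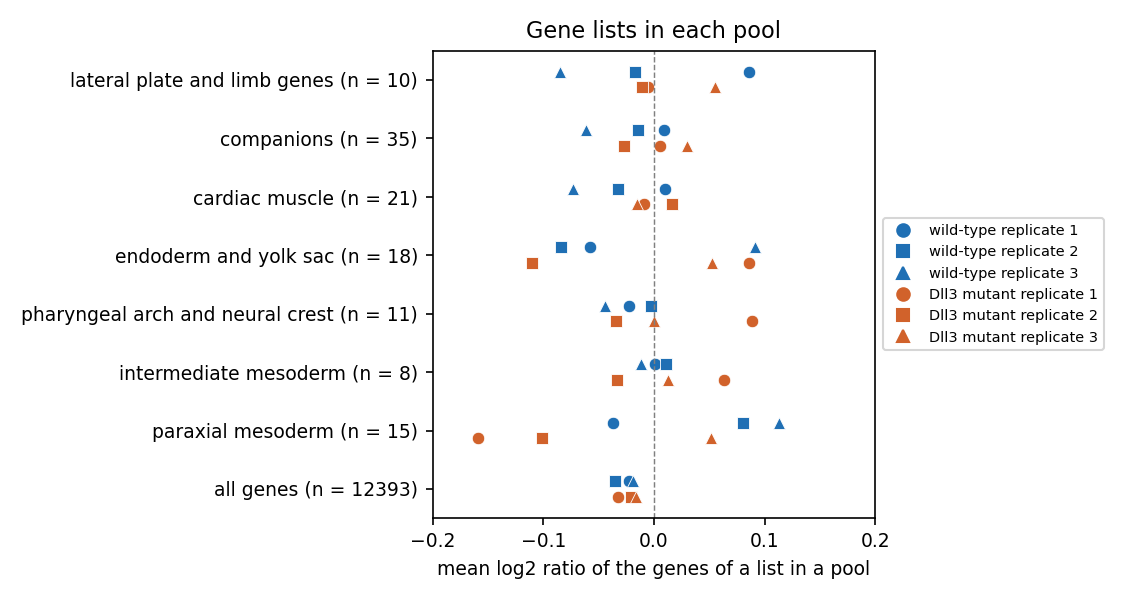
Mean log2 ratio (horizontal axis) of the genes of each list in each pool, with blue for wild-type, orange for Dll3 mutant and a symbol for each replicate number. The 10 lateral plate and limb genes run from -0.085 to 0.086 in the wild-type pools, the mutant pools lie between, and the mean over all genes lies between -0.035 and -0.016 in every pool.

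The pools also differed in sex-linked transcripts. A sex score, Xist less the mean of Eif2s3y, Kdm5d and Uty from the Y chromosome, was -0.085, -1.48 and -1.73 in wild-type replicates 1, 2 and 3 and 0.045, 0.814 and 0.729 in the mutant replicates, on the log2 scale, so wild-type replicate 1 lay nearer the mutant pools than the other wild-type pools. It is the same pool in which Hand1 was highest. The score did not overlap between the genotypes, so the covariate fit given with the alternatives cannot tell sex from genotype. Whether the sex mix of the embryos bears on Hand1 was not tested. Dll3 was at -0.02 (SE 0.073, 95% interval -0.18 to 0.14) by its single probe set. Where that probe set lies beside the insertion was not stated, so the labels are not checked by it.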

How the data were processed

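RNA of 6 pools was measured on Affymetrix MOE430A arrays. The authors deposited 1 table of 22690 probe sets, and its values are a linear ratio to a reference of each row: 93.4% of rows have a median of 1 (within 0.0015), the other 1497 a lower one, and all 18 probe sets of the 10 genes are among the former. The submitters' processing notes list RMA and MAS5 and give neither a role nor a version for them. How arrays were scaled to each other was not stated.

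The 64 control probe sets were left out. The other 22626 were fitted as log2 ratios, with no pseudocount, in limma 3.58.1 (R 4.3.3; two-sided test of genotype after lmFit and eBayes), and so were 12393 genes by the mean of their probe sets. The platform annotation gave 1 symbol to 20380 probe sets, several to 691 and none to 1555; 20351 matched the gene table of GRCm38.p6 by identifier, which was used for names and gene order. The smallest p that an exact permutation test could give for 3 pools a group is 0.1. P-values set the difference between genotypes against the spread between pools, which the series design calls biological replicates. Figures were drawn with matplotlib 3.10.9, and the fits were tested on simulated data.

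The members, lists and alternatives were chosen with earlier results of these data known. Named beside the members were, per companion list, the 3 genes of smallest p in each direction, per marker list the 2, the 3 nearest profiles to the member of smallest p in each direction, and Dll3.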

Additional observations from a re-analysis of the deposited data

How the results depend on the processing

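No probe set of the 10 genes passed under any of the 16 alternatives for probe sets, and their adjusted limma p per gene was never below 0.534. Dropping a pool leaves fewer samples; for the other differences the cause was not tested. Over all probe sets, where 0 passed (595 at an unadjusted p under 0.05), 1 passed with the replicate block, 1 with array weights, 2 in the robust fit with a trend and 0 to 1 with a pool left out. Over all genes, where 0 passed (331 unadjusted), 1 passed with each of the replicate block, the trend, the robust fit and array weights, and 0 to 1 with a pool left out. The unadjusted count over probe sets was 1072 with the replicate block, 267 with the sex score, 1770 with array weights and 319 to 1229 when 1 pool was dropped; over genes these were 617, 156, 1200 and 174 to 683. Same-numbered pools correlated in their residuals at 0.37, -0.02 and 0.37, and pools of unlike number at -0.43 to 0.20. Mutant replicates 1 and 3 each correlated best with the wild-type pool of their own number. Mutant replicate 2 correlated best with wild-type replicate 3 (0.15). The main fit left the replicate number out, and the block fit holds it. Uncx passed at -0.998 with the replicate block (limma adjusted p = 0.0348), the trend and the robust fit, and at -1.12 with array weights.

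The median of the 10 genes was -0.092 with the sex score as a covariate, which parts the genotypes, and -0.012 to 0.072 with a pool left out. With that covariate the values of Hand1 (-0.374), Hand2 (-0.199), Tbx5 (-0.0522), Tbx3 (-0.0453), Prrx2 (-0.0333), Dll3 (0.0609), Irx5 (-0.0313), Cdkn2a (0.157) and Ret (0.0223) turned sign. With array weights Hand1 (-0.0517), Hand2 (-0.0103), Tbx3 (-0.00565), Dll3 (0.00136) and Bmp7 (-0.00193) turned. Hand1 turned with quantile normalization (-0.000975), Ryr2 without rows of median below 1 (0.0623), and Tbx3 (-0.0143) and Wnt5a (-0.0859) by the most variable probe set. With a pool left out the range was -0.113 to 0.179 for Hand1, -0.112 to 0.106 for Hand2, -0.0478 to 0.0109 for Dll3, -0.0151 to 0.172 for Wt1, -0.142 to 0.00259 for Sema3e, -0.137 to 0.0221 for Sufu and -0.0592 to 0.206 for Myl7. Tbx2, Foxf1, Prrx1, Gata4 and Gata6 kept their sign in all 16 alternatives for genes. A ratio holds no signal over background, so no limit by depth can be given.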
